A study of Mus musculus with 12 samples.

Results

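The glutathione and thioredoxin genes served by the transcription factor NRF2 were followed in MC3T3-E1 subclone 14 cells, a mouse preosteoblast line derived from calvaria. The set holds 10 genes, chosen by name out of the 52654 genes with a count in every file: Nfe2l2, which encodes NRF2 itself, its inhibitor Keap1, and the 8 antioxidant genes Gclc, Gclm, Slc7a11, Gsr, G6pdx, Txnrd1, Srxn1 and Nqo1. All 10 passed the filter on low counts and were tested.

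There were 12 RNA-seq libraries in 4 groups of 3: co-cultured cells on titanium discs with nanotopography, co-cultured cells on control titanium discs, isolated cells on nanotopography and isolated cells on control titanium. All 4 groups received osteogenic supplements, ascorbic acid at 5 µg/mL and β-glycerophosphate at 7 mM, and were harvested on day 7. In the co-cultures, RAW 264.7 macrophages that had been driven towards osteoclasts with 50 ng/mL RANKL sat above the osteoblasts in inserts with 0.4 µm pores from day 5, for 2 days. RANKL, the insert and the osteoclasts are recorded for the co-cultures only, so their effects cannot be told apart. The series states biological triplicates and does not say whether replicates were separate passages of this clonal line. Bulk RNA cannot tell fewer cells of a kind from less RNA per cell.

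Under basal conditions KEAP1 holds NRF2 for ubiquitination by the CUL3 ligase, and the protein is degraded. Electrophiles and oxidants modify cysteines of KEAP1, NRF2 accumulates, pairs with a small MAF protein and binds antioxidant response elements in DNA. Its targets make glutathione, regenerate reduced glutathione and thioredoxin, and supply NADPH for both. Because NRF2 is controlled largely as a protein, its mRNA level is not a measure of its activity. In bone, NRF2 is known for limiting oxidative stress in osteoblasts and for restraining osteoclast formation.

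The bases upstream of 4 of these genes are shown because they cover the range of behaviour described below: Srxn1 and Nfe2l2 were higher in co-culture on both surfaces, Gclm gave a different answer on nanotopography with and without a correction for GC content, and Slc7a11 had few counts. Each stretch is the 250 bases before the RefSeq start site in GRCm38.p6, written 5′ to 3′ on the gene's strand, with matches to the motifs named in the next paragraph in capitals.
Srxn1, chr2:152105274-152105523, plus strand: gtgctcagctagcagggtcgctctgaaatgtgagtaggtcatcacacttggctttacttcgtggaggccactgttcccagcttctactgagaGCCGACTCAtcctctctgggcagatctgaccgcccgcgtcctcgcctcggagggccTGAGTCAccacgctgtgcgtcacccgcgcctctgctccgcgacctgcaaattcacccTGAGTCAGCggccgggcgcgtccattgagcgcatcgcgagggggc
Nfe2l2, chr2:75704664-75704913, minus strand: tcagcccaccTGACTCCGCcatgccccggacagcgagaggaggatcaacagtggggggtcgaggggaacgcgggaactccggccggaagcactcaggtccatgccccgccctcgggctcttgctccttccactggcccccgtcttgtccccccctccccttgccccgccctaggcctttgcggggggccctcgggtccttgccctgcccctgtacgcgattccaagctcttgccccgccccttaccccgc
Gclm, chr3:122245307-122245556, plus strand: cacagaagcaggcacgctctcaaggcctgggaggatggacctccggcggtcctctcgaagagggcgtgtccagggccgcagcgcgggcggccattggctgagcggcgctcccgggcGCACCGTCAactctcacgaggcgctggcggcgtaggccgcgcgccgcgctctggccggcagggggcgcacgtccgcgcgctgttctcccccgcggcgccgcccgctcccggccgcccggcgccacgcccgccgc
Slc7a11, chr3:50443614-50443863, minus strand: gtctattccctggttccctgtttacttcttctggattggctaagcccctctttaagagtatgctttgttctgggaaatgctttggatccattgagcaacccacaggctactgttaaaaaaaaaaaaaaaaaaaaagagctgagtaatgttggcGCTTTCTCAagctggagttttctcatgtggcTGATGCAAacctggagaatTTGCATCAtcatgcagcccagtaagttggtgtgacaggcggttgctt

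The windows searched ran from 250 bases before to 50 bases after the start site, and 8 of the 10 genes had at least 1 such window; Gclc and Gsr are named only. The antioxidant response element core was searched on both strands as TGACNNNGC and as TGAGNNNGC. The first form was in a window of 5 of the 8 genes (Gclm, Txnrd1, Srxn1, Nfe2l2 and G6pdx), against 14.0% of 27025 genes with a window, and 1 or other form was in 6 of the 8, against 30.8% of all genes. In Srxn1, which encodes sulfiredoxin, the core began at -158, at -45 and at 29 bases from the start site, the last of these past the printed stretch. The match at -45 overlaps an AP-1 element (TGANTCA), a further copy of which stood at -102; AP-1 elements were in 7.81% of all windows. The Slc7a11 window held the amino acid response element core TGATGNAA at -66 on one strand and at -47 on the other, a motif in 3.97% of all windows, and an antioxidant core at -97. These are matches of letters, not shown to be sites of binding. The 8 genes were chosen by name around NRF2, so a share above that of all genes is no finding of these data. They had 10 windows, as Txnrd1 had more than 1, and the 27025 genes had 32851.

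Library totals over the genes used ran from 5866842 to 9207831 counts. Libraries differed along GC content. Relative to each gene's mean, the median gene below 40% GC was shifted by 0.32 to 0.80 (log2) in co-cultured cells on nanotopography, -0.18 to -0.01 in co-cultured cells on control titanium, -0.66 to -0.13 in isolated cells on nanotopography and -0.13 to 0.30 in isolated cells on control titanium. The median gene above 60% GC was shifted by -1.09 to -0.67, -0.09 to 0.19, 0.35 to 0.62 and 0.19 to 0.33 in the same groups. The 3 co-cultures on nanotopography and the first and the third isolated culture on nanotopography stood apart, while the second isolated culture on nanotopography lay beside the third one on control titanium. The first principal component, with 55.4% of the variance, followed GC content across genes. Most changes below are given also with GC and length trends taken out of every library, called GC-adjusted values. Whether that trend is technical was not tested, and the adjustment may take true change with it. The 8 osteoblast markers were present in all libraries, with summed levels of 57229 to 71180 CPM (counts scaled to a common library size) in co-cultured cells on nanotopography, 92775 to 105907 CPM in co-cultured cells on control titanium, 105469 to 110208 CPM in isolated cells on nanotopography and 104677 to 116186 CPM in isolated cells on control titanium. The 10 macrophage markers summed to 10.2 to 27.7, 4.56 to 8.42, 3.10 to 4.16 and 3.41 to 5.60 CPM in the same groups. Ptprc, Adgre1, Tyrobp and Itgam were at 0 in both isolated groups, and Adgre1 and Itgam also in co-cultured cells on control titanium. The 8 osteoclast markers summed to 172 to 229, 183 to 200, 178 to 197 and 188 to 194 CPM, mostly Ctsk, with Atp6v0d2 and Dcstamp at 0 in both isolated groups and Calcr at 0 in all. What part cells from the inserts have in the results below was not tested.

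In co-culture, Nfe2l2, Gclc and Srxn1 were higher on both surfaces, while Nqo1 and Txnrd1 passed the test on neither. On nanotopography, 7 of the 10 genes were called in co-cultured against isolated cells, 4 higher (Gclc, Gclm, Srxn1 and Nfe2l2) and 3 lower (Gsr, Keap1 and G6pdx), in a comparison that called 59.2% of all 13340 genes tested, 28.7% higher and 30.4% lower. On control titanium, 3 were called, all higher (Gclc, Srxn1 and Nfe2l2), against 19.7% of all genes, 10.9% higher and 8.72% lower. A gene was called at an adjusted p below 0.05 in edgeR's quasi-likelihood test, with Benjamini-Hochberg adjustment over all tested genes, and log2 fold changes are given ± SE. The median log2 fold change was 0.24 for the 10 genes and 0.00 for all genes on nanotopography, and 0.34 and -0.02 on control titanium. The share called on nanotopography is near the share of all genes. Without regard to calls, 4 genes were higher in every co-culture on nanotopography and 2 lower, against 31.4% and 32.9% of all genes; on control titanium 6 were higher and 0 lower, against 18.8% and 17.3%. After GC adjustment, 4 were called on nanotopography (Gclc, Srxn1 and Nfe2l2 higher, Gsr lower; 39.4% of all genes) and 5 on control titanium (Gclc, Gclm, Srxn1, Nfe2l2 and G6pdx higher; 26.9% of all genes). The comparisons on the 2 surfaces share no libraries, though the fit shares 1 estimate of spread.

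**Figure D1:**
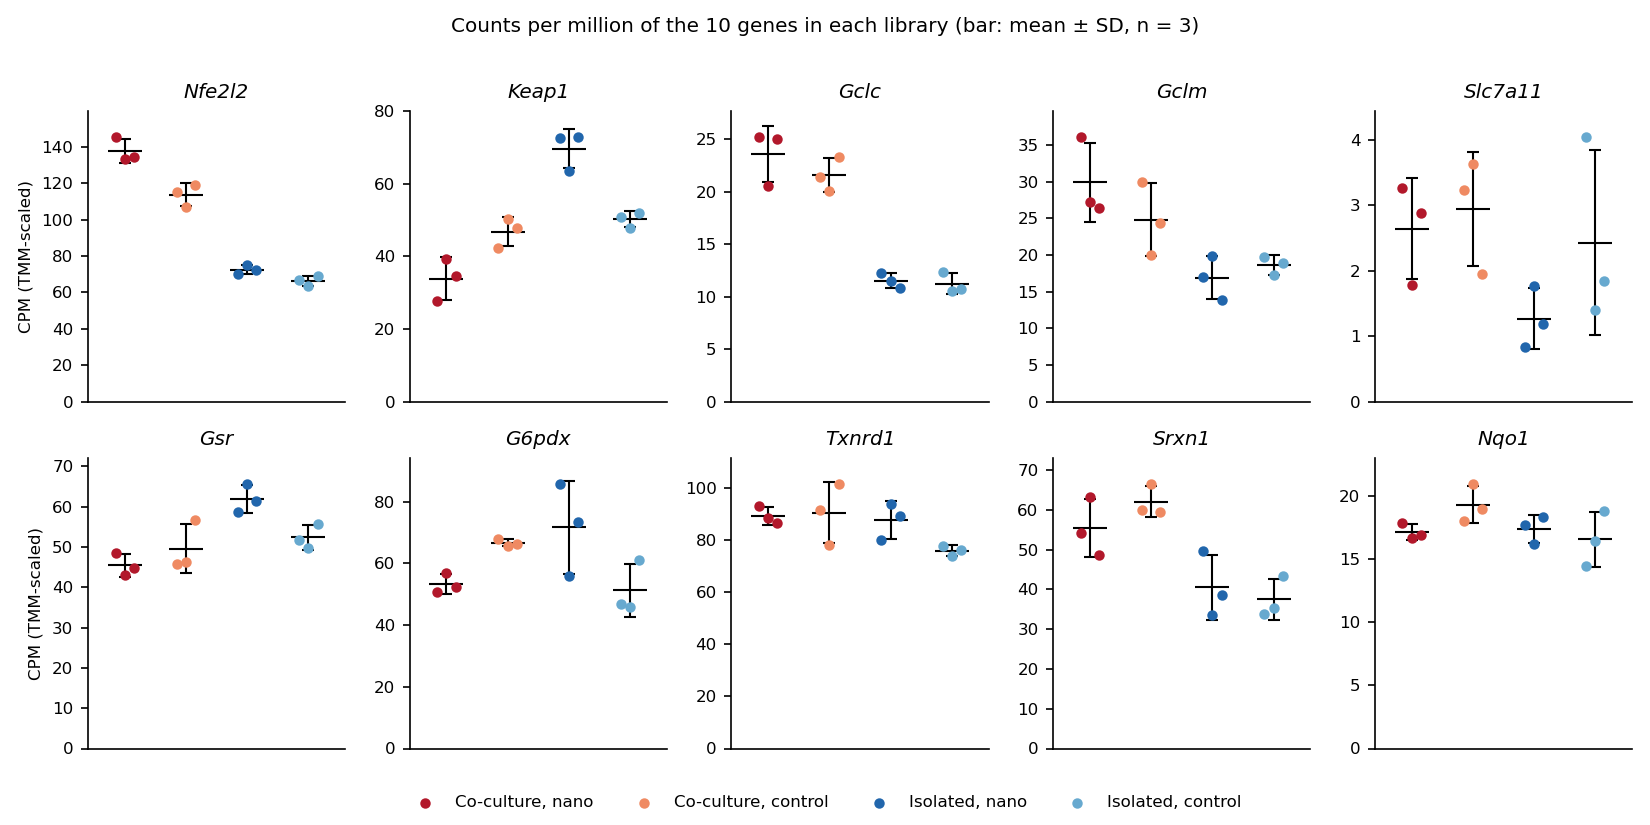
CPM (y axis, TMM-scaled, linear from 0) of each gene in each library, 1 panel per gene, with points for the 3 libraries of a group and bars for the mean and SD. Groups run from left to right as co-culture on nanotopography, co-culture on control titanium, isolated on nanotopography and isolated on control titanium; Nfe2l2 and Gclc lie higher in all 6 co-cultures than in all 6 isolated cultures.

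Nfe2l2, on chromosome 2 (ENSMUSG00000015839.6, 75675513 to 75704641, minus strand, mm10), had 145, 133 and 135 CPM in co-cultured cells on nanotopography, against 70.3, 75.2 and 72.3 CPM in isolated cells on nanotopography. On control titanium it had 115, 107 and 119 CPM in co-cultured cells, against 66.8, 63.6 and 68.8 CPM in isolated cells. Every co-culture was above every isolated culture. The change was 0.92 ± 0.09 on nanotopography (edgeR adjusted p = 6.32e-07, GC-adjusted 0.72) and 0.78 ± 0.09 on control titanium (adjusted p = 2.37e-05, GC-adjusted 0.79). Both calls held in all 25 alternative settings. The 2 changes differed by 0.15 ± 0.13 (adjusted p = 0.372, GC-adjusted -0.08).

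Keap1, the adaptor that delivers NRF2 to the ubiquitin ligase (ENSMUSG00000003308.15, chromosome 9, 21229730 to 21239361, minus strand), was lower in co-culture on nanotopography as tested. It had 27.7, 39.3 and 34.6 CPM in co-cultured cells on nanotopography, against 72.6, 63.4 and 72.8 CPM in isolated cells, with no overlap (-1.04 ± 0.13, edgeR adjusted p = 4.60e-06). In cells on control titanium, Keap1 had 42.4, 50.3 and 47.8 CPM in co-cultured cells and 50.8, 47.8 and 52.0 CPM in isolated cells, which overlap (-0.10 ± 0.13, adjusted p = 0.610). The difference between the surfaces, -0.93 ± 0.18, passed the test (adjusted p = 7.15e-04). Keap1 has the highest GC content of the 10 transcripts, 58.0%, and GC adjustment left changes of -0.12 on nanotopography (adjusted p = 0.302) and -0.11 on control titanium, and a difference of -0.01 (adjusted p = 0.979). An antisense gene, Gm16754, shares 510 exon bases with Keap1 and had 233 counts in all libraries, against 4210 for Keap1; whether counting used strand is not given in the sources used here.

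Per kilobase of exon, the ratio of Nfe2l2 to Keap1 mRNA was 5.16 ± 1.18 in co-cultured cells on nanotopography and 1.30 ± 0.147 in isolated cells on nanotopography (SD, n = 3 each). On control titanium it was 3.02 ± 0.375 in co-cultured cells and 1.64 ± 0.0096 in isolated cells (SD, n = 3 each). The lowest co-culture ratio, 2.62, was above the highest isolated ratio, 1.65. These ratios are not GC-adjusted, and they describe mRNA, not protein. On nanotopography, GC adjustment took the co-culture change of Keap1 from -1.04 to -0.12 and that of Nfe2l2 from 0.92 to 0.72.

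Glutamate-cysteine ligase, which catalyses the rate-limiting step of glutathione synthesis, has a catalytic subunit encoded by Gclc and a modifier subunit encoded by Gclm. Gclc (ENSMUSG00000032350.9, chromosome 9, 77754535 to 77794485, plus strand) had 25.2, 20.6 and 25.0 CPM in co-cultured cells on nanotopography, against 12.3, 11.5 and 10.9 CPM in isolated cells. On control titanium it had 21.4, 20.1 and 23.3 CPM in co-cultured cells, against 12.4, 10.6 and 10.7 CPM in isolated cells. The lowest co-culture was above the highest isolated culture. The change was 1.03 ± 0.14 on nanotopography (edgeR adjusted p = 1.40e-05, GC-adjusted 0.90) and 0.94 ± 0.14 on control titanium (adjusted p = 1.94e-04, GC-adjusted 0.92), and both calls held in all 25 settings.

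Gclm (ENSMUSG00000028124.15, chromosome 3, 122245557 to 122270732, plus strand) was less uniform than Gclc. It had 36.1, 27.3 and 26.4 CPM in co-cultured cells on nanotopography, against 17.0, 19.8 and 13.9 CPM in isolated cells (0.82 ± 0.17, edgeR adjusted p = 7.22e-04). Gclm on control titanium had 30.0, 20.1 and 24.4 CPM in co-cultured cells, against 19.8, 17.2 and 19.0 CPM in isolated cells (0.42 ± 0.17, adjusted p = 0.0945). The groups did not overlap on either surface. Gm17494, on the opposite strand, shares 296 exon bases with Gclm and had 19 counts in all libraries, against 1959 for Gclm. The pseudogene Gm6061, on the same strand, shares 244 exon bases with Gclm and had 1 count, so reads of the 2 cannot be told apart there by strand. The Gclm transcript has 42.1% GC, and adjustment exchanged the calls: 0.06 on nanotopography (adjusted p = 0.768) and 0.51 on control titanium (adjusted p = 0.00790). Leaving out the second co-culture on control titanium also brought a call there (0.57, adjusted p = 0.0477). On nanotopography the call was lost without the 3 libraries that lie farthest on the first principal component, chosen after seeing the data (0.67, adjusted p = 0.0598); this leaves 1 co-culture on nanotopography, assumed to vary like the other groups. Per kilobase, the ratio of Gclc to Gclm was 1.34 ± 0.220 and 1.16 ± 0.174 in co-cultured and isolated cells on nanotopography, and 1.49 ± 0.259 and 1.01 ± 0.0523 in co-cultured and isolated cells on control titanium (SD, n = 3 each).

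Slc7a11 (ENSMUSG00000027737.10, chromosome 3, 49892526 to 50443614, minus strand) encodes the cystine-glutamate exchanger that brings in the cysteine for glutathione. It had 5 to 31 counts in a library, so that counting error is large. It had 3.26, 1.78 and 2.88 CPM in co-cultured cells on nanotopography and 0.841, 1.76 and 1.19 CPM in isolated cells, a change of 1.02 ± 0.46 (edgeR adjusted p = 0.0658, GC-adjusted 0.05). On control titanium it had 3.24, 3.63 and 1.95 CPM in co-cultured cells and 4.04, 1.40 and 1.85 CPM in isolated cells, with overlap (0.28 ± 0.39, adjusted p = 0.649, GC-adjusted 0.42). It was called on nanotopography in 5 of 25 settings, among them those without the second co-culture on nanotopography (1.27, adjusted p = 0.0338), without the second isolated culture on nanotopography (1.37, adjusted p = 0.0400) and without the first isolated culture on control titanium (1.01, adjusted p = 0.0395). Its partner Slc3a2, the heavy chain that carries the exchanger to the membrane, was at 51.2 CPM per kb of exon in co-cultured cells on nanotopography, where Slc7a11 was at 0.190 CPM per kb. Slc3a2 averaged 181 CPM in co-cultured cells on nanotopography and 114 CPM in isolated cells, and rose by 0.66 ± 0.14 (adjusted p = 5.43e-04, GC-adjusted 1.09). On control titanium Slc3a2 averaged 339 CPM in co-cultured cells and 120 CPM in isolated cells, and rose by 1.50 ± 0.14 (adjusted p = 1.04e-06, GC-adjusted 1.42).

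Gsr (ENSMUSG00000031584.16, chromosome 8, 33652523 to 33698163, plus strand), the reductase that returns oxidised glutathione to its reduced form with NADPH, had 48.6, 43.0 and 44.8 CPM in co-cultured cells on nanotopography, against 58.7, 65.6 and 61.4 CPM in isolated cells. It fell there by 0.45 ± 0.11 on the log2 scale (edgeR adjusted p = 0.00264, GC-adjusted -0.32, adjusted p = 0.0190), a call that held in all 25 settings. In cells on control titanium, Gsr had 45.9, 46.3 and 56.7 CPM in co-cultured cells and 51.7, 49.7 and 55.7 CPM in isolated cells, which overlap (-0.08 ± 0.11, adjusted p = 0.661, GC-adjusted -0.13). The difference between the surfaces, -0.37 ± 0.16, missed the threshold (adjusted p = 0.0640, GC-adjusted -0.20).

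G6pdx (ENSMUSG00000031400.10, X chromosome, 74409483 to 74429194, minus strand) encodes glucose-6-phosphate dehydrogenase, the entry to the NADPH-yielding branch of the pentose phosphate pathway. It had 50.8, 57.0 and 52.4 CPM in co-cultured cells on nanotopography and 85.7, 55.9 and 73.5 CPM in isolated cells, which overlap (-0.42 ± 0.14, edgeR adjusted p = 0.0171). G6pdx on control titanium had 68.0, 65.8 and 66.4 CPM in co-cultured cells, all above 47.0, 45.7 and 61.1 CPM in isolated cells (0.39 ± 0.14, adjusted p = 0.0660). The difference between the surfaces, -0.81 ± 0.20, passed the test (adjusted p = 0.00387) but not after GC adjustment (-0.37, adjusted p = 0.0978). GC adjustment also removed the fall on nanotopography (-0.05, adjusted p = 0.750) and brought a call on control titanium (0.32, adjusted p = 0.0367). The fall on nanotopography was lost as well without the first co-culture (-0.39, adjusted p = 0.0504), without the third co-culture (-0.39, adjusted p = 0.0629) or without the first isolated culture on that surface (-0.28, adjusted p = 0.122). It was also lost without the 3 farthest libraries named for Gclm (-0.20, adjusted p = 0.519). On control titanium a call came on fitting only the groups compared (0.38, adjusted p = 0.0371), without the third isolated culture on control titanium (0.54, adjusted p = 0.0141), or without the first (0.39, adjusted p = 0.0476) or second (0.40, adjusted p = 0.0220) isolated culture on nanotopography, which enter through the shared spread. The gene shares 418 exon bases with Ikbkg on the opposite strand, which had 2319 counts in all libraries against 5139 for G6pdx; without strand-aware counting, the reads of the 2 genes there could not be told apart.

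Of the thioredoxin arm, Srxn1 rose and Txnrd1 did not pass the test. Srxn1 (ENSMUSG00000032802.8, chromosome 2, 152105516 to 152111376, plus strand) encodes sulfiredoxin, which repairs over-oxidised peroxiredoxins, and its upstream bases stand first among those printed above. It had 54.2, 63.3 and 48.7 CPM in co-cultured cells on nanotopography and 49.6, 33.5 and 38.5 CPM in isolated cells, where the highest isolated culture overlaps (0.46 ± 0.15, edgeR adjusted p = 0.0131, GC-adjusted 0.89). Srxn1 on control titanium had 60.1, 66.5 and 59.5 CPM in co-cultured cells, all above 33.8, 35.4 and 43.3 CPM in isolated cells (0.73 ± 0.15, adjusted p = 0.00204, GC-adjusted 0.65). The call on control titanium held in all 25 settings. That on nanotopography was lost without the second co-culture (0.36, adjusted p = 0.0566), the second isolated culture (0.35, adjusted p = 0.0530) or the third isolated culture (0.41, adjusted p = 0.0566) on that surface.

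Txnrd1 (ENSMUSG00000020250.10, chromosome 10, 82833951 to 82897712, plus strand), the cytosolic thioredoxin reductase, had 93.3, 88.7 and 86.5 CPM in co-cultured cells on nanotopography and 80.0, 94.1 and 89.5 CPM in isolated cells. The change of 0.03 ± 0.11 was not called (edgeR adjusted p = 0.846, GC-adjusted 0.09). On control titanium it had 91.7, 78.4 and 102 CPM in co-cultured cells, above 78.0, 73.9 and 76.4 CPM in isolated cells by 0.25 ± 0.11, not called (adjusted p = 0.110, GC-adjusted 0.19). Without the second co-culture on control titanium this change was called (0.36, adjusted p = 0.0455). Nqo1 (ENSMUSG00000003849.8, chromosome 8, 107388225 to 107403206, minus strand), the quinone reductase often used as a readout of NRF2, had 17.8, 16.6 and 16.8 CPM in co-cultured cells on nanotopography and 17.7, 16.1 and 18.3 CPM in isolated cells (-0.02 ± 0.14, adjusted p = 0.904, GC-adjusted -0.15). On control titanium it had 18.0, 20.9 and 18.9 CPM in co-cultured cells and 14.4, 16.4 and 18.8 CPM in isolated cells, which overlap (0.22 ± 0.14, adjusted p = 0.258, GC-adjusted 0.25). It was called in none of the 25 settings on either surface, where its change ran from -0.15 to 0.03 on nanotopography and from 0.14 to 0.33 on control titanium.

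**Figure D2:**
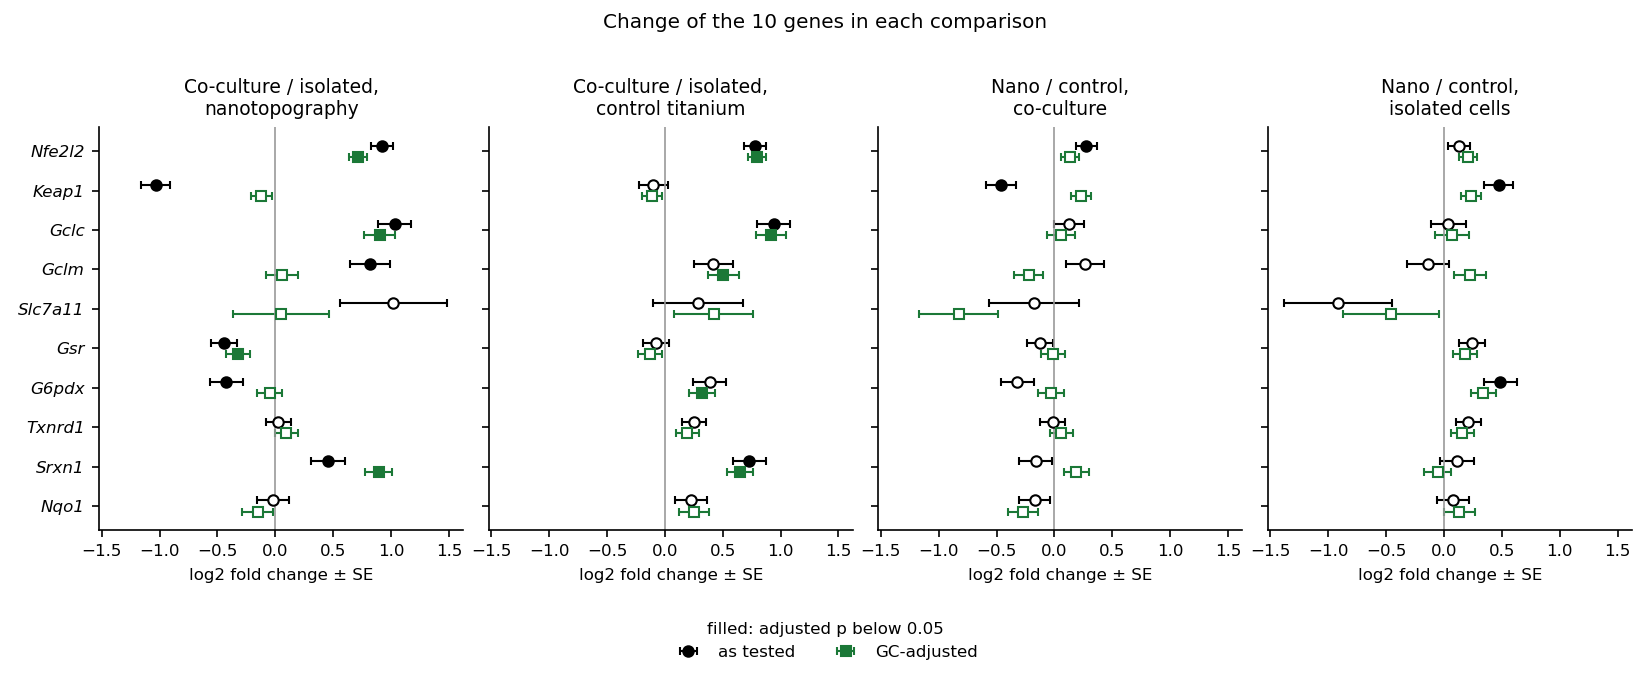
Log2 fold change ± SE (x axis) of each gene in 4 comparisons, from left to right co-culture over isolated on nanotopography, the same on control titanium, nanotopography over control in co-culture, and the same in isolated cells. Black circles are the values as tested, green squares the GC-adjusted ones, and filled symbols have an adjusted p below 0.05; Gclc, Nfe2l2 and Srxn1 are filled in both forms in both co-culture panels, while Keap1 is filled on nanotopography only as tested.

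**Figure D3:**
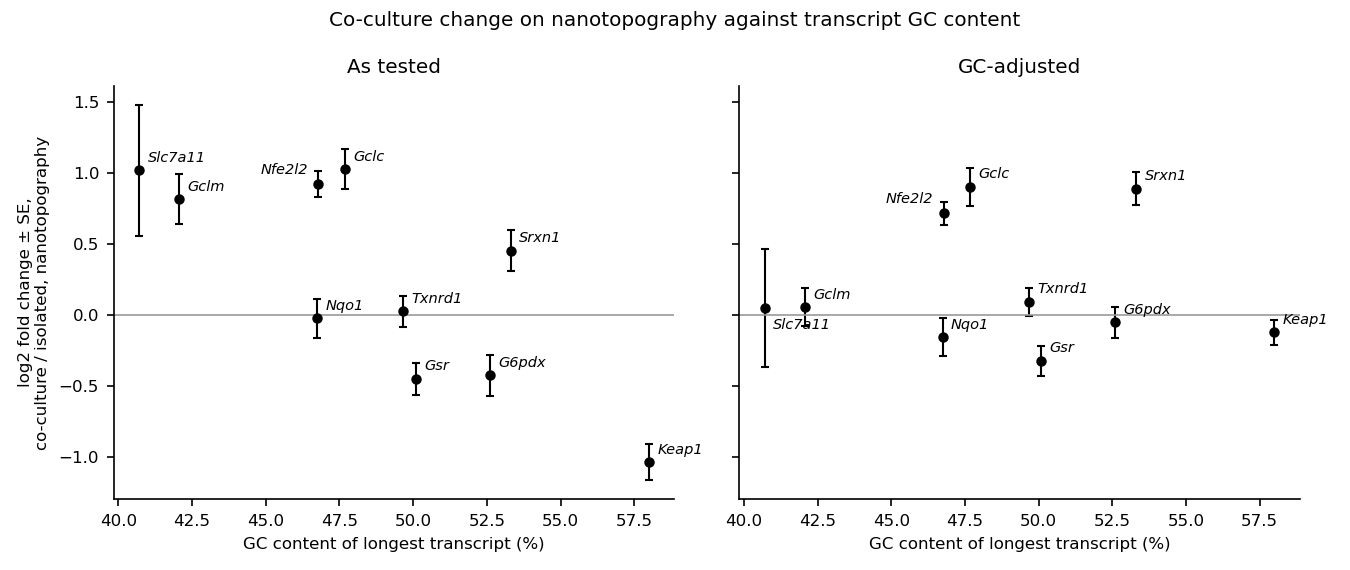
GC content of the longest transcript (x axis, %) against the log2 fold change ± SE of co-cultured over isolated cells on nanotopography (y axis), as tested on the left and GC-adjusted on the right. Slc7a11 and Gclm at the low end and Keap1 at the high end move to near 0 after adjustment, whereas Srxn1 moves up from 0.46 to 0.89.

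The changes on nanotopography as tested went in part with transcript GC content, as the plot against GC content shows. The lowest GC contents, in Slc7a11 (40.7%) and Gclm (42.1%), went with changes of 1.02 and 0.82, and the highest, in Keap1 (58.0%), with -1.04. Between these ends, Nqo1 (46.7%), Nfe2l2 (46.8%) and Gclc (47.7%) had nearly the same GC content and changes of -0.02, 0.92 and 1.03. After adjustment Gclc, Srxn1 and Nfe2l2 were the genes at 0.90, 0.89 and 0.72, and the other 7 lay between -0.32 and 0.09.

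Comparing nanotopography with control titanium, 2 of 10 were called in isolated cells (Keap1 and G6pdx, both higher; 9.71% of all genes called, 4.32% higher and 5.39% lower) and 2 in co-cultured cells (Nfe2l2 higher and Keap1 lower; 42% of all genes called, 18.6% higher and 23.3% lower). These comparisons use the same libraries as the co-culture comparisons. In isolated cells, Keap1 rose by 0.47 ± 0.12 (edgeR adjusted p = 0.0306) with no overlap, and G6pdx by 0.49 ± 0.14 (adjusted p = 0.0423) with overlap. In co-cultured cells, Nfe2l2 rose by 0.28 ± 0.09 (adjusted p = 0.0238) and Keap1 fell by 0.46 ± 0.13 (adjusted p = 0.00944), both with no overlap. Non-overlap was more frequent than calls: 4 genes (Keap1, Gsr, Txnrd1 and Nfe2l2) were higher in every isolated culture on nanotopography, against 15.3% of all genes, and in co-culture 1 was higher and 3 (Keap1, G6pdx and Nqo1) were lower in every culture, against 24.9% and 28.4% of all genes.

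None of these surface calls held after GC adjustment: edgeR called 0 of 10 in either culture, against 5.45% and 18.3% of all genes called in isolated and co-cultured cells. At an unadjusted p below 0.05 there were 3 of 10 in each culture, and the share of all genes at that threshold is not given here. As tested, DESeq2 and limma-voom each called 2 in each culture. In isolated and co-cultured cells, DESeq2 called 13.4% and 40.5% of all genes, and limma-voom 9.94% and 41.9%. The GC-adjusted change of Keap1 in co-cultured cells was of the other sign, 0.23 (adjusted p = 0.0828), and the adjusted change of Nfe2l2 was 0.13 (adjusted p = 0.242). Both co-culture calls were lost without the first co-culture on nanotopography (Keap1 -0.34, adjusted p = 0.0583; Nfe2l2 0.24, adjusted p = 0.0892), and that of Nfe2l2 without the second co-culture on control titanium (0.23, adjusted p = 0.106). In isolated cells both calls were lost without the first or second isolated culture on control titanium, or the first or the third on nanotopography; the changes were then 0.44 to 0.49 for Keap1 and 0.34 to 0.48 for G6pdx, and calls over all genes fell to between 0.0218% and 0.473%. G6pdx lost its call there also without any 1 of the co-cultures on control titanium or the third one on nanotopography, at 0.48 each time. In co-cultured cells G6pdx was called on leaving out the second isolated culture on nanotopography (-0.33, adjusted p = 0.0338) and on fitting only the groups compared (-0.31, adjusted p = 0.0343). The same-numbered libraries of the 2 co-culture groups deviated together, and a fit of these 6 libraries with the replicate number as a block called 3 of 10 (52.7% of all genes): Nfe2l2 (0.29 ± 0.09, adjusted p = 0.00721), Keap1 (-0.46 ± 0.11, adjusted p = 6.43e-04) and G6pdx (-0.31 ± 0.10, adjusted p = 0.00905). In that paired fit Gclc (0.14 ± 0.13, adjusted p = 0.390), Gclm (0.29 ± 0.13, adjusted p = 0.0526), Srxn1 (-0.16 ± 0.10, adjusted p = 0.198) and Nqo1 (-0.16 ± 0.14, adjusted p = 0.357) were not called. Each of these moved the same way in all 3 pairs, and the share of all genes that did so is not given here. With the GC adjustment as well, the paired fit called 0 of 10 (25.9% of all genes). For the difference of the 2 co-culture effects, 2 of 10 were called, both lower (Keap1 and G6pdx), beside 47.8% of all genes called, 22.4% higher and 25.4% lower. After GC adjustment 0 were called, beside 20.8% of all genes. At an unadjusted p below 0.05 there were then 3 of 10, again without a share of all genes at that threshold.

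Per kilobase of exon, Nfe2l2 was the highest of the 10 in both co-cultures, at 36.3 ± 1.75 CPM per kb on nanotopography and 30.0 ± 1.66 CPM per kb on control titanium (SD, n = 3 each), with no overlap with the next gene, Srxn1. In isolated cells G6pdx (23.3 ± 4.87 CPM per kb on nanotopography) and Gsr (19.0 ± 1.12 CPM per kb on control titanium) led, and each overlapped the gene next to it. In all 4 groups the order ended with Gclc, then Gclm, then Slc7a11, which was at 0.190, 0.211, 0.0908 and 0.174 CPM per kb in co-cultured cells on nanotopography and on control titanium and isolated cells on nanotopography and on control titanium. Gclc and Gclm overlapped in every group except co-cultured cells on control titanium, where Gclc was at 5.73 ± 0.431 and Gclm at 3.94 ± 0.790 CPM per kb (SD, n = 3 each). Txnrd1 and Nqo1 sat in the middle of the order, between 10.7 and 12.8 CPM per kb in every group.

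Over the 12 libraries, the pair of members with the most similar log2 CPM profiles was Gclc and Nfe2l2, which differed by a root mean square of 0.13 after each was centred on its own mean; Slc7a11 and Keap1 were farthest apart, at 0.89. Outside the set, the protein-coding genes nearest to Nfe2l2 were Patl1 (0.08), Tgfbr3 (0.08) and St13 (0.09). Those nearest to Gclc were Jag1 (0.12), Ccdc141 (0.13) and Fn1 (0.13), and those nearest to Slc7a11 were Cdkn2aip (0.28), Selenop (0.30) and Ift88 (0.32). These distances are descriptions over 12 libraries that share the group differences and the GC trend.

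Among other regulators of NRF2, the DNA-binding partner Maff, the competitor Bach1 and the KEAP1 binder Sqstm1 rose in co-culture on both surfaces. On nanotopography 8 of 11 tested were higher and 1 lower (median 0.42), beside 28.7% and 30.4% of all genes, and on control titanium 6 were higher (median 0.45), beside 10.9% of all genes. GC-adjusted, 6 were higher and 2 lower on nanotopography and 7 were higher on control titanium. That adjusted fit called 39.4% and 26.9% of all genes on the 2 surfaces, in either direction. The lower gene as tested was Mafk (-0.48 ± 0.16, edgeR adjusted p = 0.0183), whose GC-adjusted change was 0.25 (adjusted p = 0.184). Those lower after adjustment were Btrc (-0.94) and Rbx1 (-0.62), at -0.09 and -0.03 as tested. Maff, a small MAF partner, had 11.5, 12.4 and 12.1 CPM in co-cultured cells on nanotopography, against 5.04, 4.40 and 3.06 CPM in isolated cells, a rise of 1.52 ± 0.24 (edgeR adjusted p = 4.81e-05, GC-adjusted 2.42). On control titanium Maff averaged 17.4 CPM in co-cultured cells and 4.07 CPM in isolated cells, a rise of 2.12 ± 0.23 (adjusted p = 7.35e-06, GC-adjusted 2.12). Sqstm1, encoding p62, which sequesters KEAP1, had 370, 443 and 395 CPM in co-cultured cells on nanotopography, against 333, 255 and 315 CPM in isolated cells (0.42 ± 0.13, adjusted p = 0.00844, GC-adjusted 0.93). On control titanium Sqstm1 had 582, 615 and 558 CPM in co-cultured cells, against 211, 238 and 286 CPM in isolated cells (1.26 ± 0.13, adjusted p = 3.51e-06, GC-adjusted 1.19). Bach1, the repressor that competes with NRF2 for its elements, rose by 0.82 ± 0.13 on nanotopography (adjusted p = 5.03e-05, GC-adjusted 0.47) and 0.45 ± 0.13 on control titanium (adjusted p = 0.0190, GC-adjusted 0.41). Cul3, the ligase scaffold, rose on nanotopography by 1.01 ± 0.14 (adjusted p = 1.70e-05), with a GC-adjusted change of 0.00; on control titanium its change was 0.21 ± 0.14 (adjusted p = 0.319) and 0.42 GC-adjusted.

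**Figure D4:**
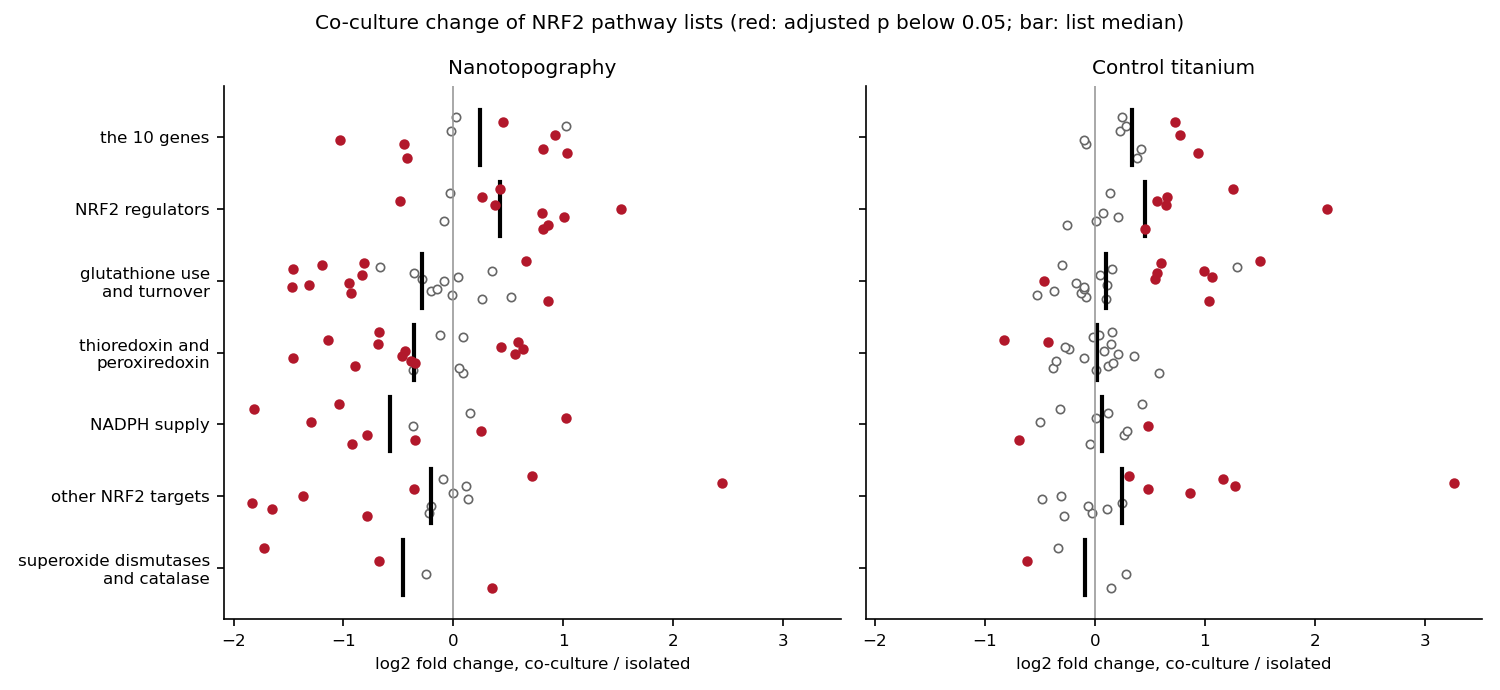
Log2 fold change of co-cultured over isolated cells (x axis) for the 10 genes and for 6 lists of related genes (rows), on nanotopography at left and on control titanium at right. Each point is a gene, red where the adjusted p is below 0.05, and the black bar is the list's median; the glutathione, thioredoxin and NADPH lists have medians of -0.29, -0.36 and -0.58 on nanotopography and 0.10, 0.02 and 0.07 on control titanium.

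Of 21 tested genes that use or turn over glutathione, 2 were higher and 8 lower on nanotopography (median -0.29), beside 28.7% and 30.4% of all genes. On control titanium 7 were higher and 1 lower (median 0.10), beside 10.9% and 8.72% of all genes. After GC adjustment 5 were higher and 6 lower on nanotopography, beside 39.4% of all genes called in either direction. On control titanium 7 were then higher and 1 lower, beside 26.9%. Abcc1, which exports glutathione conjugates, rose by 0.86 ± 0.10 on nanotopography (edgeR adjusted p = 2.63e-06, GC-adjusted 0.93) and by 1.04 ± 0.10 on control titanium (adjusted p = 2.40e-06, GC-adjusted 0.92). The glutathione transferase Gstm1 rose on control titanium, where it had 54.4, 64.4 and 63.3 CPM in co-cultured cells against 27.2, 31.1 and 28.7 CPM in isolated cells (1.06 ± 0.13, adjusted p = 2.60e-05, GC-adjusted 1.00). On nanotopography its change was 0.04 ± 0.13 (adjusted p = 0.801) as tested and 0.62 GC-adjusted. On nanotopography the peroxidases Gpx1 (-1.47 ± 0.21, adjusted p = 2.08e-05) and Gpx4 (-1.31 ± 0.21, adjusted p = 4.54e-05) and the transferase Gstp1 (-1.45 ± 0.23, adjusted p = 4.33e-05) were lower, with GC-adjusted changes of -0.48, 0.03 and -0.58. The difference between the surfaces was called for 11 of the 21, all lower, beside 47.8% of all genes called and 25.4% lower, and after GC adjustment for 3 lower and 1 higher, beside 20.8% of all genes.

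Of the 18 thioredoxin and peroxiredoxin genes, 4 were higher and 9 lower on nanotopography (median -0.36), beside 28.7% and 30.4% of all genes. On control titanium 2 were lower (median 0.02), beside 8.72% of all genes. GC-adjusted, 4 were higher and 9 lower on nanotopography, beside 39.4% of all genes called in either direction. On control titanium 3 were then lower, beside 26.9%. Txnip, an inhibitor of thioredoxin, was lower in every co-culture: it had 8.64, 8.50 and 11.2 CPM in co-cultured cells on nanotopography, against 22.5, 19.5 and 20.5 CPM in isolated cells (-1.14 ± 0.16, edgeR adjusted p = 1.91e-05, GC-adjusted -1.20). On control titanium Txnip had 10.4, 11.4 and 12.6 CPM in co-cultured cells, against 23.7, 19.1 and 18.0 CPM in isolated cells (-0.83 ± 0.16, adjusted p = 0.00144, GC-adjusted -0.86). The peroxiredoxins Prdx5 (-1.46 ± 0.17, adjusted p = 2.63e-06, GC-adjusted -0.69) and Prdx2 (-0.89 ± 0.15, adjusted p = 9.22e-05, GC-adjusted -0.68) were lower on nanotopography.

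Of the 10 tested genes that supply NADPH, 2 were higher and 6 lower on nanotopography (median -0.58), beside 28.7% and 30.4% of all genes. On control titanium 1 was higher and 1 lower (median 0.07), beside 10.9% and 8.72% of all genes. GC-adjusted, 5 were lower on nanotopography, beside 39.4% of all genes called in either direction. On control titanium 3 were then higher and 3 lower, beside 26.9%. Taldo1, the transaldolase of the pentose phosphate pathway, had 18.4, 26.1 and 29.3 CPM in co-cultured cells on nanotopography, against 94.0, 74.3 and 91.8 CPM in isolated cells (-1.82 ± 0.16, edgeR adjusted p = 1.78e-07, GC-adjusted -1.25). The transketolase Tkt was lower there too (-1.04 ± 0.17, adjusted p = 6.15e-05, GC-adjusted -0.54). On control titanium Pgd, the next dehydrogenase after G6pdx, rose by 0.49 ± 0.16 (adjusted p = 0.0413, GC-adjusted 0.46) and Idh1 fell by 0.69 ± 0.10 (adjusted p = 9.38e-05, GC-adjusted -0.59).

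Among 13 further NRF2 targets, 2 were higher and 5 lower on nanotopography (median -0.20), beside 28.7% and 30.4% of all genes. On control titanium 6 were higher (median 0.25), beside 10.9% of all genes. GC-adjusted, 4 were higher and 4 lower on nanotopography (median 0.00), beside 39.4% of all genes called in either direction. On control titanium 6 were then higher and 1 lower, beside 26.9%. Hmox1, encoding heme oxygenase and also repressed by BACH1, had the largest rise in this list on both surfaces, 2.44 ± 0.15 on nanotopography (edgeR adjusted p = 3.49e-09, GC-adjusted 2.94) and 3.27 ± 0.15 on control titanium (adjusted p = 1.09e-09, GC-adjusted 3.22). The ferritin light chain Ftl1 had 289, 297 and 245 CPM in co-cultured cells on control titanium, against 96.1, 96.7 and 151 CPM in isolated cells (1.28 ± 0.19, adjusted p = 1.90e-04, GC-adjusted 1.34). Osgin1 rose on control titanium by 1.16 ± 0.22 (adjusted p = 0.00140, GC-adjusted 1.23). On nanotopography Ftl1 (0.11 ± 0.19, adjusted p = 0.633) and Osgin1 (-0.09 ± 0.24, adjusted p = 0.759) were not called as tested, and their GC-adjusted changes were 1.22 and 0.98. The 4 lower there after adjustment were Blvrb (-1.29), Aldh3a1 (-1.19), Abcc4 (-0.83) and Cbr3 (-0.52). Of the 4 superoxide dismutases and catalase, 1 was higher and 2 lower on nanotopography (median -0.46), beside 28.7% and 30.4% of all genes. On control titanium 1 was lower (median -0.09), beside 8.72% of all genes. GC-adjusted, 1 was higher (Cat, 0.34, adjusted p = 0.00673) and 3 lower on nanotopography, beside 39.4% of all genes called in either direction. On control titanium 2 were then lower, beside 26.9%. Sod3, the extracellular enzyme, was lower on nanotopography (-1.72 ± 0.13, adjusted p = 3.58e-08, GC-adjusted -1.37). Sod2, the mitochondrial one, was lower on nanotopography (-0.67 ± 0.12, adjusted p = 2.12e-04, GC-adjusted -1.43) and on control titanium (-0.62 ± 0.12, adjusted p = 0.00235, GC-adjusted -0.53).

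Slc7a11 is also a known target of ATF4, the transcription factor of the integrated stress response. Of Atf4 and 9 other genes of that response, Slc7a11 not among them, 4 were higher and 4 lower on nanotopography (median -0.02). The shares of all genes there were 28.7% and 30.4%. On control titanium 5 were higher (median 0.56), beside 10.9% of all genes. After GC adjustment 7 were higher and 2 lower on nanotopography (median 0.88), beside 39.4% of all genes called in either direction. On control titanium 6 were then higher, beside 26.9%. Atf4 itself had 281, 264 and 321 CPM in co-cultured cells on nanotopography, against 142, 154 and 161 CPM in isolated cells (0.92 ± 0.12, edgeR adjusted p = 5.22e-06, GC-adjusted 1.61). On control titanium Atf4 had 352, 354 and 273 CPM in co-cultured cells, against 219, 215 and 202 CPM in isolated cells (0.62 ± 0.11, adjusted p = 0.00106, GC-adjusted 0.58). Its target Trib3 rose by 1.89 ± 0.18 on nanotopography (adjusted p = 3.54e-07, GC-adjusted 2.85) and 1.73 ± 0.16 on control titanium (adjusted p = 1.35e-06, GC-adjusted 1.77). Ddit3, which encodes CHOP, rose by 2.64 ± 0.12 on nanotopography (adjusted p = 1.18e-10, GC-adjusted 2.50) and 2.10 ± 0.12 on control titanium (adjusted p = 4.31e-09, GC-adjusted 2.16). The amino acid synthesis genes did not share this pattern on nanotopography. There Psat1, of serine synthesis, was lower (-0.86 ± 0.17, adjusted p = 3.10e-04, GC-adjusted -0.90), and Phgdh, of the same pathway, was lower as tested (-0.93 ± 0.23, adjusted p = 0.00245, GC-adjusted -0.07). Asns, the asparagine synthetase, was at -0.31 ± 0.16 on nanotopography (adjusted p = 0.0973), called after GC adjustment (-0.42, adjusted p = 0.0259), and rose by 0.71 ± 0.16 on control titanium (adjusted p = 0.00407, GC-adjusted 0.72).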

How the data were processed

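RNA of MC3T3-E1 osteoblasts was measured in 12 libraries built with a SMARTer kit, per the labels' protocols. The authors deposited 1 table of raw counts per gene for each library; cutadapt, FastQC 0.63, STAR 2.4, HTSeq, DESeq2 and the build mm10 are named in the submitters' processing notes, without their order or settings, and strandedness is not given in the sources used here. The files as used here end within a line in 11 of 12 cases, so the 52654 genes complete in all files were kept, which hold 99.924% or more of the counts in any library. Every gene matched an ID of GENCODE M21 once versions were dropped.

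Counts were tested with edgeR 4.0.16 (limma 3.58.1, R 4.3.3): TMM scaling, filterByExpr (13340 genes tested), a quasi-likelihood fit of 4 group means over all 12 libraries, and Benjamini-Hochberg adjustment over all tested genes in each comparison, called below 0.05. The SE is the absolute log2 fold change over the root of F. The common dispersion was 0.0151, a coefficient of variation of 12.3%. CPM values are TMM-scaled, with a prior count of 2 on the log scale, except the marker sums, which use plain library totals. The GC adjustment used loess curves (span 0.3) on GC content and then on log2 length of the longest transcript, as offsets. Same-numbered libraries of the 2 co-culture groups correlated in their deviations from the group means (0.54, 0.31 and 0.24), so the comparison between them was also fitted with the number as a block; no other pair of groups had all 3 correlations above 0.1. Replicates of a group differed beyond sampling noise in all 12 pairs (chi-square per degree of freedom 5.31 to 28.1). The rule for naming took all 10 genes, up to 4 genes with the smallest p from each related list and comparison, genes of a list needed to describe roles, and the 3 nearest genes for the 3 members with the largest span; genes named for their role were chosen after their values were seen. The members and lists were chosen with earlier results of these data known. Distances between profiles are root mean squares of centred log2 CPM. Promoter windows came from RefSeq, GRCm38.p6. Alternatives were DESeq2 1.42.0, limma-voom, other scalings, filters and gene sets, a replicate block, the GC adjustment, and each library left out in turn. Figures used Python 3.11.15 and matplotlib 3.10.9.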

Additional observations from a re-analysis of the deposited data

Results flagged for a closer look

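The effect of co-culture differed between the surfaces for Keap1 and for G6pdx by the interaction term of the edgeR fit. For Keap1 the co-culture effect on nanotopography less that on control titanium was -0.93 ± 0.18 (log2, adjusted p = 7.15e-04), and -0.01 (adjusted p = 0.979) after GC adjustment. For G6pdx it was -0.81 ± 0.20 (adjusted p = 0.00387), and -0.37 (adjusted p = 0.0978) after GC adjustment. Both calls held when any 1 library was left out. Over all 24 alternative settings, Keap1 was called in 22 and G6pdx in 21. Without the 3 libraries farthest on the first principal component, which leaves 1 co-culture on nanotopography, the difference for G6pdx was -0.59.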

How the results depend on the processing

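The number of the 10 genes called was 3 on control titanium and 7 on nanotopography for co-cultured against isolated cells, 2 for nanotopography against control in isolated cells, 2 in co-cultured cells, and 2 for the difference of the co-culture effects. In the same order, 19.7%, 59.2%, 9.71%, 42% and 47.8% of all genes were called. With the GC adjustment the counts of the 10 were 5, 4, 0, 0 and 0, beside 26.9%, 39.4%, 5.45%, 18.3% and 20.8% of all genes. They were the same with the replicate block added to it, beside 25.1%, 37.9%, 3.67%, 16.4% and 18.8% of all genes. Fitting only the groups compared gave 4, 8, 1 and 3 for the first 4, beside 21.6%, 58.7%, 7.66% and 42.6% of all genes. Testing all genes without the filter gave 3, 8, 2, 1 and 2, beside 10.9%, 30.2%, 8.05%, 21.1% and 23.8% of all genes. Without the 3 libraries farthest on the first principal component, chosen after seeing the data, which leaves 1 co-culture on nanotopography, assumed to vary like the other groups, the counts were 3, 5, 0, 0 and 1, while 18%, 24.1%, 0.553%, 5.38% and 14% of all genes were called. Leaving out each library in turn gave 3 to 5, 6 to 8, 0 to 2, 0 to 3 and 2 to 2, while the share of all genes called ran over 10.6% to 21.7%, 49.5% to 59%, 0.0218% to 20.9%, 24.1% to 43.3% and 38.8% to 50.6%. The change of Keap1 between surfaces in co-culture turned from -0.46 to 0.23 with the GC adjustment, with or without the block, and to 0.24 in the GC-adjusted fit of the 6 co-cultures with the block, which called 0. The cause was not tested. The replicate block over all 12 libraries left the counts at 3, 7, 2, 2 and 2, beside 18.4%, 58.1%, 9.3%, 40.9% and 46.7% of all genes. Same-numbered libraries correlated above 0.1 in all 3 pairs of the 2 co-culture groups, where the paired fit of these groups, also chosen after seeing the data, called 3, and over all groups in 9 of 18 pairs (-0.64 to 0.54), so the numbers are not taken to pair the other groups. DESeq2 and limma-voom each gave 3, 7, 2, 2 and 2. DESeq2 called 19.3%, 57%, 13.4%, 40.5% and 46% of all genes, and limma-voom 20.2%, 58.9%, 9.94%, 41.9% and 47.9%. The fit of only the groups compared was not run for the difference of effects. Depth limits Slc7a11, which had 5 to 31 counts a library.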
